A study of Aspergillus nidulans with 12 samples.

Results

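The binding of LaeA to chromatin was examined by setting the peaks of a LaeA::FLAG strain of Aspergillus nidulans against those of the untagged wild type (WT). Chromatin immunoprecipitation followed by sequencing (ChIP-seq) had been carried out with an anti-FLAG antibody on 3 libraries of each strain. Peak centres of these 6 libraries were chained into regions when neighbouring centres lay up to 100 bp apart, which gave 6631 regions. A region was a member when 2 or 3 LaeA::FLAG libraries and 0 WT libraries had a peak in it. There were 324 members, 4.89% of all regions. Of these, 66 had a peak in all 3 LaeA::FLAG libraries and 258 in exactly 2.

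The LaeA::FLAG strain RJW302.11 carries laeA with a C-terminal 3×FLAG tag and the AfriboB marker at the native locus, and it was obtained as progeny of a sexual cross. The WT strain was RDIT9.32, which has no FLAG epitope. Cells of both strains were grown vegetatively for 24 h in liquid minimal medium with glucose, in the dark. Nothing in the labels says that libraries of a strain came from separate cultures, so the p-values measure only the spread between these libraries. Anti-rabbit IgG served as the negative control (1 library per strain), and 3 anti-FLAG libraries of a VeA::FLAG strain (RJW324.3) of the same study were used as marks of VeA binding.

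LaeA is a nuclear protein that binds S-adenosylmethionine and regulates secondary metabolism and development in filamentous fungi. It has no known DNA-binding domain. In the dark it forms a complex with VeA and VelB, which belong to the velvet family of fungal regulators, and velvet proteins bind DNA. A ChIP-seq peak of LaeA is therefore a place where the protein was crosslinked to chromatin, directly or through partners.

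The depth of the libraries was uneven. The totals were 970627.5 to 3701440 tags in the LaeA::FLAG libraries and 319742 to 7974006 tags in the WT libraries. The signal of a peak is its number of tags scaled to a library total of 10 M, so that 1 tag is worth 4.64, 10.3 and 2.70 units in LaeA::FLAG replicates 1, 2 and 3 and 1.25, 8.78 and 31.3 units in the WT replicates. The median signal of LaeA::FLAG peaks in members, 558.7, would amount to 445 tags in WT replicate 1, 63.6 tags in WT replicate 2 and 17.9 tags in WT replicate 3. The 5th percentile of the tags in called peaks was 81.0, 18.0 and 17.5 in these WT replicates, so a typical member at the same strength would have been near that percentile in WT replicate 3, where the fewest tags of a called peak were 7.50. The WT lists give signal at their own peaks only, and 0 WT libraries means that no WT peak was called, not that anti-FLAG signal was absent. Counts and intervals below cover counting error only.

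Repeated calling was more frequent among regions of LaeA::FLAG than among those of WT. In the LaeA::FLAG strain 4244 regions were called in 1 library, 258 in 2 and 66 in 3, with 0 WT peaks. In WT the corresponding numbers were 1852, 29 and 1, with 0 LaeA::FLAG peaks. The mirror of the member rule, 2 or 3 WT and 0 LaeA::FLAG libraries, thus held for 30 regions, 0.452% of all. This number rested on WT replicates 2 and 3, since it was 5 without WT replicate 2 and 3 without WT replicate 3, and it was 50 without LaeA::FLAG replicate 2. A further 69 regions lay just outside the rule, with 2 or 3 LaeA::FLAG libraries and 1 to 3 WT libraries. These numbers describe the choice of members and were not tested, and they also move with the number of peaks in each list, which was 2471, 2217 and 557 in LaeA::FLAG and 134, 1831 and 201 in WT.

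**Figure D1:**
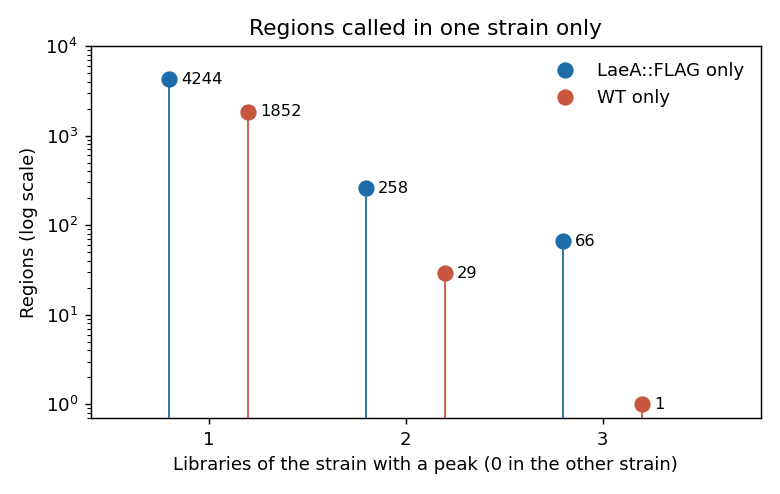
Number of regions (vertical axis, log scale) by the number of libraries of 1 strain with a peak and 0 libraries of the other (horizontal axis), for LaeA::FLAG (blue) and WT (red). Members are the 258 and 66 blue regions at 2 and 3 libraries, and the red regions at 2 and 3 libraries number 29 and 1.

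The members took in 268 of the peaks of LaeA::FLAG replicate 1 (10.8%), 277 of replicate 2 (12.5%) and 169 of replicate 3 (30.3%). Of the members in exactly 2 libraries, 155 were shared by replicates 1 and 2, 47 by replicates 1 and 3 and 56 by replicates 2 and 3. Replicate 3 had the shortest list and the largest share of its peaks in members. The count of members rested on single libraries. It was 116 without LaeA::FLAG replicate 1, 108 without replicate 2, and 164 when each LaeA::FLAG list was shortened to its 557 top-scoring peaks.

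Peaks of one member lay close together. The distance between the outermost centres had a median of 47 bp and a maximum of 189 bp. In 34 members the largest gap was 90 to 100 bp, just inside the limit, whereas 26 neighbouring pairs of peaks from different LaeA::FLAG libraries lay 100 to 110 bp apart and were not chained. The peaks of 19 members named more than 1 nearest exon, and the peak with the highest signal was used for these.

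The signal in members was similar in the 3 LaeA::FLAG libraries. Members called in all 3 libraries had median signals of 708, 672 and 679 in replicates 1, 2 and 3. Members called in 2 libraries had medians of 485, 520 and 601. Peaks of regions called in only 1 LaeA::FLAG library had lower medians, 311, 392 and 384. Within the 66 members of 3 libraries the highest library exceeded the lowest by a median of 1.47-fold, and by over 2-fold in 10 members. No library was consistently the highest, since replicate 1 was highest in 27 of these members, replicate 2 in 21 and replicate 3 in 18. The signal helped to decide which peaks were called, so these values are a description of the members. Thinnest in tags were peaks of replicate 2, where the weakest peak of a member held 17.0 tags and the median 53.5.

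The members lay mostly upstream of genes. The nearest exon start was that of exon 1, the first exon of the gene, in 240 of 324 members. Of these, 193 were within 1.5 kb upstream, the promoter length the study used, 18 were further upstream and 29 lay downstream of the exon start. The study counted this length from the translation start site, whereas here it runs from the annotated start of exon 1. The nearest start belonged to a later exon in 84 members. The share in exon 1 promoters was 59.6% (95% Wilson interval 54.1 to 64.8%). It was 68.2% (56.2 to 78.2%) in the members of 3 libraries and 57.4% (51.3 to 63.2%) in those of 2.

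Other regions were less often in exon 1 promoters. The share was 36.6% (35.2 to 38.1%) in regions of 1 LaeA::FLAG library and 0 WT libraries, 27.5% (18.4 to 39.0%) in the 69 regions just outside the rule and 23.0% (21.1 to 24.9%) in regions called in WT only. Over all 21897 merged regions of the study it was 30.0%. Regions are not replicates, so the intervals give no test of condition. The promoter-TSS class of the deposited annotation, which counts the start of any exon, did not separate the members in the same way, with 69.4% of members, 68.9% of regions of 1 LaeA::FLAG library and 66.8% of all merged regions. Within the exon 1 promoters the members had a median distance of 387 bp upstream (quartiles 161 and 697 bp), compared with 351 bp for regions of 1 LaeA::FLAG library. Intergenic positions held 13.3% of members and 5.19% of all merged regions.

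**Figure D2:**
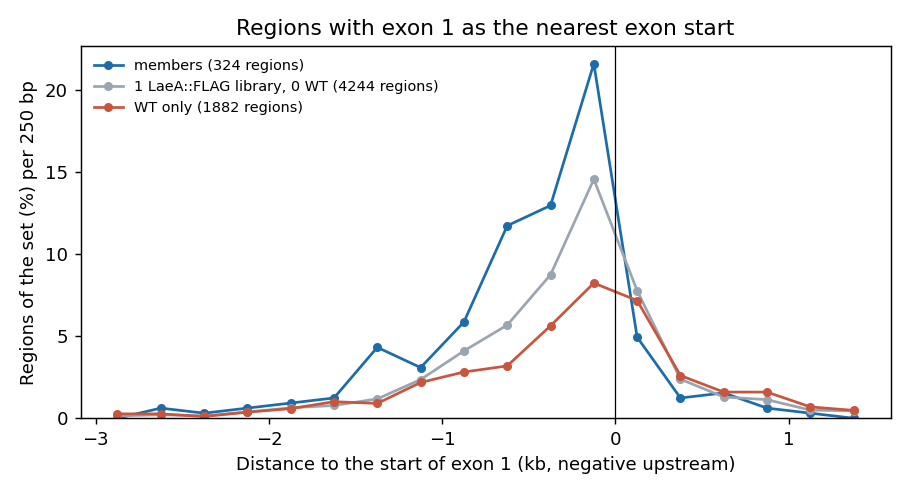
Share of regions (vertical axis, % of the set in each 250 bp bin) by distance from the start of exon 1 (horizontal axis, kb, negative upstream), for members (blue), regions of 1 LaeA::FLAG library (grey) and regions of WT only (red). In the 250 bp just upstream of exon 1 lay 21.6% of members, 14.6% of regions of 1 LaeA::FLAG library and 8.24% of regions of WT only.

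To compare the members with other peaks of the same library, peaks in members were set against peaks in regions of 1 LaeA::FLAG library for measures that the rule did not use. In replicates 1, 2 and 3 the exon 1 promoter share was 60.4, 58.5 and 62.1% for peaks in members and 35.6, 37.0 and 40.8% for peaks in regions of 1 library. The mean difference was 22.6 ± 1.95 percentage points (SD, n = 3), with members higher in 3 of 3 libraries (exact two-sided sign-flip permutation test, p = 0.25, adjusted over 2 comparisons p = 0.25). This is the smallest p that 3 libraries allow. Each member has peaks in 2 or 3 of these libraries, so the 3 differences are not independent. The SD and p therefore do not measure a spread between independent libraries. Peaks in members were also stronger, and among peaks above the median signal of their library the difference was 17.4, 15.2 and 3.91 percentage points, with a mean of 12.2.

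**Figure D3:**
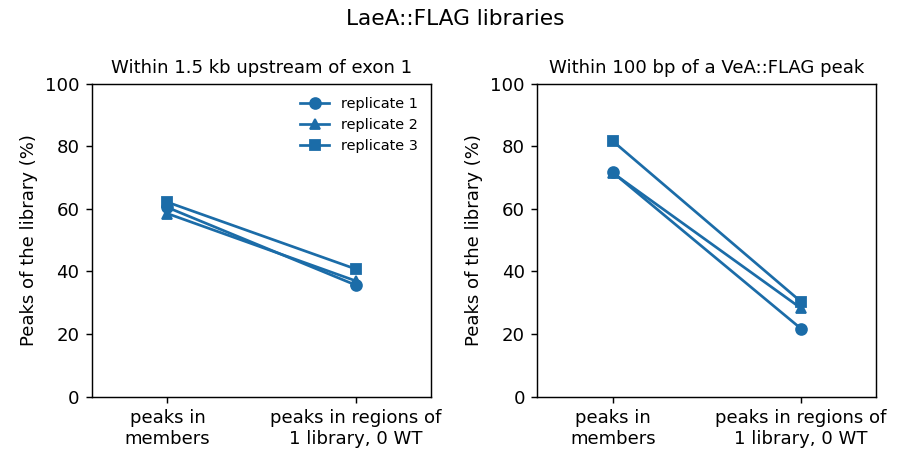
Share of the peaks of a LaeA::FLAG library (vertical axes, %) in exon 1 promoters (left panel) and within 100 bp of a VeA::FLAG peak (right panel), for peaks in members and peaks in regions of 1 library. Each line is 1 of the 3 replicates, and members are higher in every replicate in both panels.

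Over all peaks, in members or not, the exon 1 promoter share was 38.4, 39.5 and 45.6% in the LaeA::FLAG replicates and 35.1, 22.9 and 29.4% in the WT replicates. The groups did not overlap, and their means differed by 12.1 percentage points. By exact two-sided permutation p was 0.1, and 0.2 when adjusted over 4 comparisons. The smallest p that 3 libraries against 3 allow is 0.1. The share of peaks within 100 bp of a VeA::FLAG peak was 27.4, 33.2 and 45.4% in LaeA::FLAG and 29.1, 12.2 and 7.96% in WT. WT replicate 1 lay within the range of LaeA::FLAG, and the difference of 18.9 percentage points did not exceed the spread between libraries (p = 0.2 by exact two-sided permutation, adjusted p = 0.267). At 50 bp the difference was 12.6 percentage points.

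Transcription termination sites, a class that takes in the end of any exon, held 19.3, 17.3 and 18.9% of the LaeA::FLAG peaks and 18.7, 22.9 and 33.3% of the WT peaks. The groups overlapped, with a difference of -6.48 percentage points, and of -2.31 without WT replicate 3 (p = 0.3 for all libraries by exact two-sided permutation, adjusted p = 0.3). Within 100 kb of a chromosome end lay 4.29, 3.38 and 3.77% of the LaeA::FLAG peaks and 19.4, 4.42 and 4.48% of the WT peaks. The groups did not overlap and differed by -5.62 percentage points (p = 0.1 by exact two-sided permutation, adjusted p = 0.2), but WT replicate 1 made most of the difference, which was -0.64 without it. Of the members, 7 (2.16%) lay within 100 kb of an end.

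**Figure D4:**
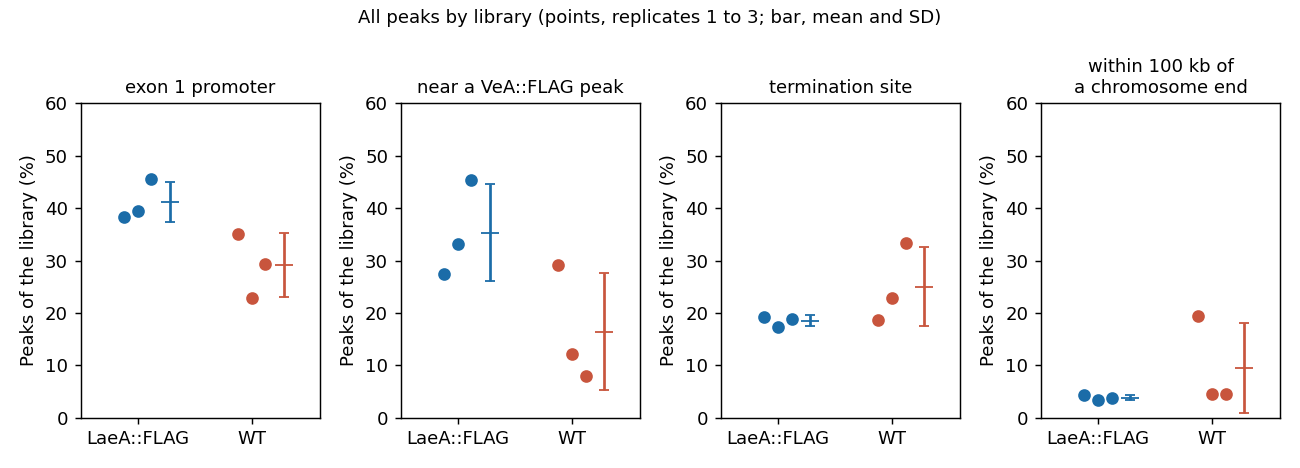
Share of all peaks of a library (vertical axes, %) in 4 kinds of position, for LaeA::FLAG (blue, left) and WT (red, right). Points are the 3 replicates and bars the mean and SD. LaeA::FLAG lies above WT without overlap for exon 1 promoters, and below it for chromosome ends, where WT replicate 1 stands apart at 19.4%.

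The members were spread over all 8 chromosomes. They numbered from 25 on chromosome IV to 58 on chromosome VIII, and their density was 8.60 per Mb on chromosome II to 12.4 per Mb on chromosome III. All regions had densities of 197 to 238 per Mb on these chromosomes. The mitochondrial genome held 0 members. Another member lay within 2 kb of 34 members, in 16 groups of up to 3.

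The nearest genes of the members were 311. The gene table gave a symbol for 37 of them, 4 were tRNA genes, and the others are known here by their AN identifiers only. Among the 9495 genes nearest to any merged region, 3.23% were nearest to a member and 1.97% had a member in the exon 1 promoter. The nearest gene is the one whose exon start lies closest, so a gene on the other side of a shared intergenic region is not counted.

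The genes of the VeA/VelB/LaeA complex were among those nearest to members. Of the 10 listed genes of the velvet complex and its partners 5 were matched by symbol, and 3 of the 5 had a member, in each case in the exon 1 promoter, beside the 1.97% over the genes nearest to any merged region. Nearest to a region of 1 LaeA::FLAG library was 1 of the 5 (20%), beside 35.1%. veA encodes the velvet protein that brings VelB and LaeA together. The member 553 bp upstream of its exon 1 (chromosome VIII, 1669942 to 1670277) had anti-FLAG signals of 2045, 1324 and 933 in LaeA::FLAG replicates 1, 2 and 3. The mean IgG signal of the same strain over these peaks was 111, so the anti-FLAG signal was 13.0-fold higher. All 3 replicates were above the IgG level, which the calling of peaks favours, and the highest was 2.19 times the lowest. Without LaeA::FLAG replicate 1 this position was no member, since the peak centres of replicates 2 and 3 lay more than 100 bp apart.

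A second member lay 1230 bp upstream of veA exon 1 (chromosome VIII, 1670674 to 1670894). It had signals of 848 and 757 in replicates 1 and 2 and no peak in replicate 3, with an IgG signal of 49.2. Both regions had peaks in all 3 VeA::FLAG libraries. At the first, the VeA::FLAG signals were 1044, 1693 and 1205, and at the second 731, 903 and 670. Thus both tagged strains gave peaks at these positions upstream of veA.

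velB encodes the velvet partner of VeA. Its member, 494 bp upstream of exon 1 (chromosome VIII, 3784956 to 3785317), had LaeA::FLAG signals of 369, 747 and 538 in replicates 1, 2 and 3, a mean 5.39-fold over the IgG signal of 102. The VeA::FLAG signals at the same place were 3484, 3642 and 2016. It was among the weaker members of 3 libraries in LaeA::FLAG, at rank 53 of 66 by the lowest library. Without LaeA::FLAG replicate 2 it was no member, because the centres of the other two peaks were more than 100 bp apart.

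laeA itself had a member 420 bp upstream of exon 1 (chromosome VIII, 2424428 to 2424731). The signals were 644 and 727 in LaeA::FLAG replicates 1 and 3, with no peak in replicate 2, and the IgG signal over these peaks was 103. VeA::FLAG replicates 1 and 2 had peaks of 521 and 988 there. The merged region around it was 1325 bp wide and was in the top 1% of merged regions for LaeA::FLAG IgG (650 units) and for WT IgG (525 units). These units are totals over the region, not corrected for its width, and the median merged region was 264 bp wide. The same locus carries the FLAG tag and the marker, at the C-terminal end of the gene. Neither their part in this peak nor that of the IgG signal was tested.

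Of the 14 listed conidiation regulators 11 were matched, and 1 of the 11 was nearest to a member, beside the 3.23% over all genes nearest to a merged region. This was flbA, which encodes an RGS protein that turns off G protein signalling so that conidiation can start. Its member (chromosome I, 1885268 to 1885568) was called in all 3 libraries with signals of 654, 448 and 521, 6.43-fold over IgG, but it lay 3973 bp upstream of exon 1, outside the promoter window. The genes flbB, flbC, flbD and flbE, further activators of conidiation, were nearest to regions of 1 LaeA::FLAG library but to no member. Of the 11 matched genes 5 (45.5%) were nearest to such a region, beside 35.1% over the genes nearest to any merged region. Regions of WT only, in 1 and 2 libraries, were also nearest to flbC and flbD.

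Of the 12 listed regulators of sexual development only 4 were matched. Of the 4, 2 were nearest to a member, beside the 3.23% over the genes nearest to any merged region. All 4 (100%) were nearest to a region of 1 LaeA::FLAG library, beside 35.1%, so nearness to peaks was not particular to members. A region of 1 WT library was also nearest to nsdD. The homeodomain factor gene steA, required for fruiting bodies, had a member 287 bp upstream of exon 1 with signals of 399 and 592 in replicates 1 and 2. It was without a peak in replicate 3, and all 3 VeA::FLAG libraries had a peak there. nsdD, which encodes a GATA factor that activates sexual development, was the nearest gene of a member 903 bp downstream of the start of its exon 4, at a transcription termination site. That member had signals of 788 and 1245 in replicates 2 and 3 and was in the top 1% of merged regions for IgG of both strains, with 554 units in LaeA::FLAG IgG and 520 units in WT IgG. Its merged region was 1321 bp wide, and these totals were not corrected for width.

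Of the 12 listed nitrogen, carbon, pH and iron regulators 9 were matched. Of the 9, 2 had a member in the exon 1 promoter, beside the 1.97% over the genes nearest to any merged region. Nearest to a region of 1 LaeA::FLAG library were 6 of the 9 (66.7%), beside 35.1%. A region of 1 WT library was also nearest to facB. The gene of the iron-responsive GATA repressor, sreA, had signals of 551 and 659 in replicates 2 and 3 at 238 bp upstream, also in the top 1% for IgG of both strains. That merged region was likewise wide, at 1269 bp. facB, the activator of acetate utilisation, had signals of 283 and 438 in replicates 1 and 2 at 693 bp upstream. These values made facB one of the weakest named members.

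Of the 14 listed genes of central carbon metabolism only 3 were matched. Of the 3, 2 had a member in the exon 1 promoter, beside the 1.97% over the genes nearest to any merged region. Nearest to a region of 1 LaeA::FLAG library were 2 of the 3 (66.7%), beside 35.1%. With so few genes matched, these shares describe the matched genes and not the lists. gpdA, which encodes glyceraldehyde-3-phosphate dehydrogenase of glycolysis, had signals of 598 and 652 in replicates 1 and 3 at 609 bp upstream. The WT IgG signal of the merged region was 864 units over 941 bp, in the top 1% by total signal. acuF, which encodes phosphoenolpyruvate carboxykinase of gluconeogenesis, had signals of 464 and 740 in the same replicates at 1008 bp upstream.

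Genes of secondary metabolism could hardly be examined. Of 27 listed backbone enzymes and cluster regulators only 3 were matched by symbol, and 0 of these were nearest to a member. The list made for the core network that the study drew for LaeA held 23 genes. It took in esdC, which the study placed in the VeA core and not in the LaeA core. Of the 23 genes 14 were matched, esdC among them. Nearest to a member were 5 of the 14, namely flbA, veA, velB, gpdA and fpaI. Over the genes nearest to any merged region the share was 3.23%. Nearest to a region of 1 LaeA::FLAG library were 7 of the 14 (50%), beside 35.1%. The study chose that network on these samples, so these counts are not independent evidence. fpaI (AN5055) had a member 612 bp upstream of exon 1 with signals of 626, 1015 and 719.

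**Figure D5:**
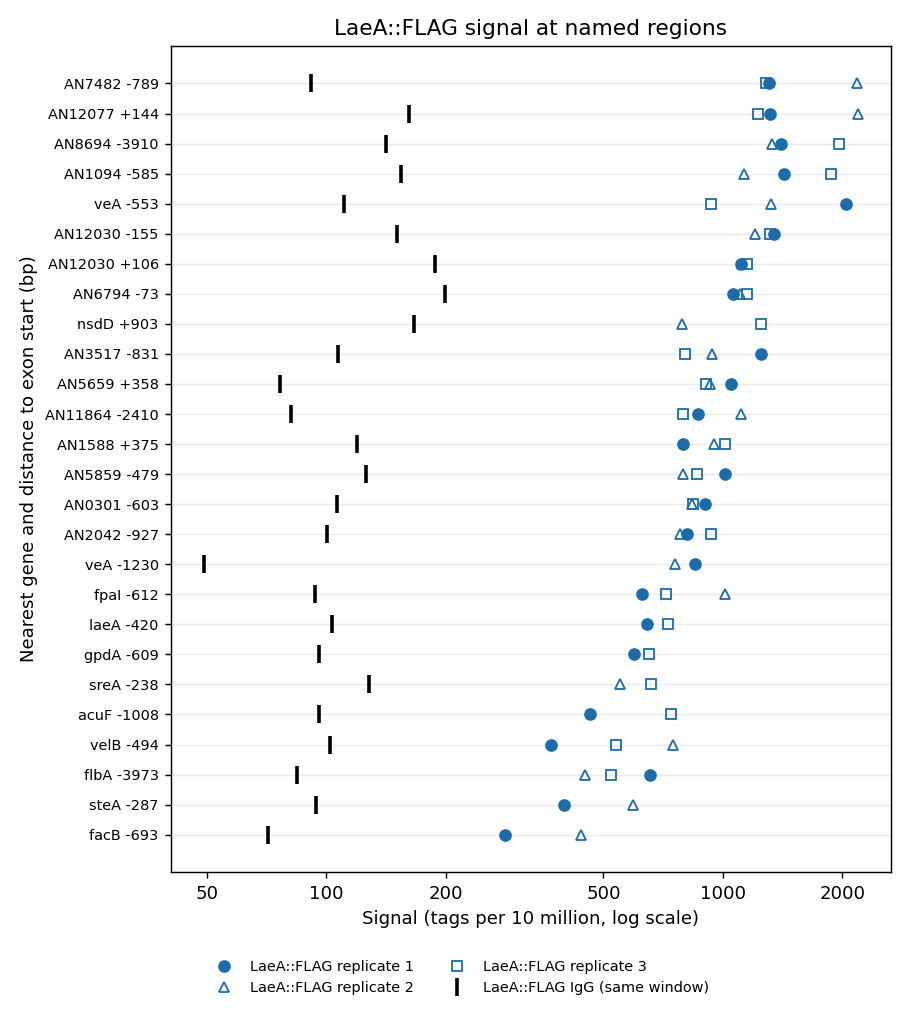
Anti-FLAG signal in tags per 10 M (horizontal axis, log scale) of the members with the highest lowest-library signal among those of 3 libraries and of the members near listed genes (rows, with distance to the nearest exon start in bp). Blue symbols are LaeA::FLAG replicates with a peak and black bars the IgG signal of the same strain over the same peaks. Every peak lies above the IgG bar of its row, from 282.8 against 71.2 at facB to 2189 against 161 at AN12077. Peaks were called at more than 2-fold, so this describes how they were chosen.

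The remaining 26 genes with a symbol, which were on no list, had 1 member each. Of these 26 members 18 lay in an exon 1 promoter and 8 did not, and 3 had a peak in all 3 LaeA::FLAG libraries. The genes described here were chosen after their values had been seen. csmB, which encodes a chitin synthase with a myosin motor-like domain, had signals of 1004, 731 and 835 at 616 bp upstream of exon 1. bgt3 had signals of 401, 541 and 525 at 719 bp upstream of exon 1. The member nearest to dspC had signals of 918, 613 and 1108 but lay 1442 bp downstream of the start of exon 4. These were the 3 members with a peak in every LaeA::FLAG library.

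Among those of 2 libraries, chiA1, a chitinase gene, had signals of 612 and 500 in replicates 1 and 2 at 1426 bp upstream of exon 1. gprD, a G protein-coupled receptor gene, had signals of 546 and 847 in replicates 2 and 3 at 222 bp upstream. hacA, the gene of the transcription factor of the unfolded protein response, had signals of 485 and 574 in replicates 1 and 3 at 136 bp upstream. These members lay in exon 1 promoters, as did those of hexA, which encodes the Woronin body protein that plugs septal pores, and of treA, a trehalase gene. The signals were 394 and 783 in replicates 1 and 2 for hexA and 721 and 686 in replicates 2 and 3 for treA. Besides dspC, the members outside exon 1 promoters were nearest to ypdA, utr2, has1, pldA, artA, csn12 and aof2. Of these, utr2 had signals of 677 and 747 in replicates 1 and 2 at 204 bp downstream of the start of exon 4.

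The strongest members were mostly near genes without a symbol, as were members in general, since only 37 of the 311 nearest genes had one. Ranked by their lowest library, the first was 3910 bp upstream of AN8694 (chromosome III, 3096508 to 3096799), with signals of 1400, 1329 and 1968 in the 3 LaeA::FLAG replicates. A WT peak lay within 500 bp of it. AN7482 followed, with signals of 1305, 2174 and 1282 at 789 bp upstream of exon 1 (chromosome IV, 1680398 to 1680666), 17.3-fold over IgG. The VeA::FLAG signals there were 3987, 4088 and 3393. AN12077 had signals of 1312, 2189 and 1224 at 144 bp downstream of the start of exon 2, again with a WT peak within 500 bp.

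AN12030 had 2 members of 3 libraries. At 155 bp upstream of exon 1 the signals were 1342, 1205 and 1316, and at 106 bp downstream of the start of exon 2 they were 1113, 1118 and 1151. The spread between libraries was small at both. AN1094 had signals of 1426, 1133 and 1870 at 585 bp upstream of exon 1. AN6794 had signals of 1062, 1108 and 1154 at 73 bp upstream of exon 1, but also the highest IgG signal over a member's peaks, 199, so that the fold was 5.55.

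The remaining members among the first 15 had lowest-library signals of 778 to 909. They lay upstream of exon 1 of AN0301 (603 bp), AN3517 (831 bp), AN5859 (479 bp), AN2042 (927 bp) and AN11864 (2410 bp). Those of AN5659 and AN1588 lay downstream of an exon start, by 358 bp from exon 4 and 375 bp from exon 1. AN5659 had signals of 1048, 927 and 909, 12.6-fold over IgG. Of the first 15, 9 lay in exon 1 promoters.

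Among the members of exactly 2 libraries the strongest was in the intergenic region beyond AN0280, 4464 bp from the start of its exon 2 (chromosome VIII, 4055639 to 4055934). It had signals of 2297 and 1464 in replicates 2 and 3 and no peak in replicate 1. At 3895 bp from the same exon start another member had signals of 1090 and 1133 in replicates 1 and 2 and no peak in replicate 3. AN0186 had signals of 1426 and 1777 in replicates 1 and 2 at 161 bp downstream of the start of exon 1. Its merged region was in the top 1% for LaeA::FLAG IgG, with a total of 422 units over 797 bp. AN0710, AN2953, AN7166, AN8694 and AN1847 completed the first 8, with lower-library signals of 1082 to 1344. Of these 8 only the member of AN2953, 686 bp upstream of exon 1, was in an exon 1 promoter.

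Several genes were nearest to more than 1 member. These were 13 genes with 2 members each, and no gene had 3. The distances from the exon start were -1230 and -553 bp at veA, -2410 and -1615 bp at AN11864, -927 and -271 bp at AN2042, -1326 and -547 bp at AN4563, and -4669 and -3910 bp at AN8694. At these 5 genes both members lay upstream of exon 1. At AN7166 both lay in exon 1, at 238 and 647 bp. AN7170, AN7247, AN12030 and AN12052 had 1 member upstream of exon 1 and 1 downstream of the start of exon 2, and those of AN0280, AN2952 and AN5002 were nearest to a later exon. Of the 2 members, the one nearer to the gene was called in 3 libraries at veA, AN4563 and AN8694 and the farther one at AN2042, whereas both were called in 3 at AN11864.

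Members far upstream were a small group. The 18 members more than 1.5 kb upstream of exon 1 had a median distance of 2325 bp, and the farthest was 4669 bp upstream of AN8694. Besides flbA, AN8694, AN11864 and AN12052, this group held ypdA, which encodes a phosphotransfer protein of two-component signalling, with signals of 840 and 746 in replicates 2 and 3 at 2599 bp upstream.

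The ratio of anti-FLAG to IgG signal had a median of 6.28 in members (quartiles 5.48 and 7.96), 7.02 in those of 3 libraries and 5.62 in regions of 1 LaeA::FLAG library. It was highest at AN3470, 42.6-fold, where both signals were low (123 and 299 anti-FLAG and 4.95 IgG). AN0186 (23.9-fold), AN2191 (19.8-fold), AN5283 (18.5-fold) and AN7482 (17.3-fold) followed. It was lowest at has1, 3.90-fold, AN2396, 4.15-fold, and AN3678, 4.27-fold. A high fold therefore marked both strong regions such as AN7482 and regions with little LaeA::FLAG IgG signal over their peaks. AN2191 was of the latter kind, with 14.6 units. Its merged region was in the top 1% for VeA::FLAG IgG, however, with 515 units, and a WT peak lay within 500 bp.

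Positions shared with VeA::FLAG were examined next, because the VeA::FLAG libraries took no part in choosing the members. A VeA::FLAG peak of at least 1 library lay within 100 bp of 236 of 324 members (72.8%, 95% Wilson interval 67.7 to 77.4%). It did so in 63 of 66 members of 3 LaeA::FLAG libraries (95.5%, 87.5 to 98.4%), in 173 of 258 members of 2 (67.1%, 61.1 to 72.5%), and in 25.2% (23.9 to 26.5%) of regions of 1 LaeA::FLAG library. In the 69 regions just outside the rule the share was 23.2% (14.8 to 34.4%), and in regions of WT only 11.7% (10.3 to 13.2%). The VeA::FLAG IgG signal of the merged region had a median of 1169 units in those 69 regions and 95.5 in members. It was 66.8 in regions of 1 LaeA::FLAG library and 57.3 in regions of WT only. Whether such background kept VeA::FLAG peaks from being called was not tested. Among the regions with 0 WT libraries the share was thus higher the more LaeA::FLAG libraries had a peak. The 3 members of 3 libraries without a VeA::FLAG peak, picked out after their values were seen, were upstream of AN5775, AN10964 and AN9064, with lowest-library signals of 690, 598 and 330. Their merged regions held 119, 303 and 153 units of VeA::FLAG IgG.

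Within the LaeA::FLAG replicates 71.6, 71.5 and 81.7% of peaks in members lay near a VeA::FLAG peak, and 21.7, 28.3 and 30.4% of peaks in regions of 1 library did. The mean difference was 48.1 ± 4.32 percentage points (SD, n = 3), with members higher in 3 of 3 libraries (exact two-sided sign-flip permutation test, p = 0.25, adjusted over 2 comparisons p = 0.25). Here too the same members were counted in 2 or 3 libraries, so the 3 differences are not independent. Among peaks above the median signal of their library the difference was 42.4, 39.2 and 35.6 percentage points. The VeA::FLAG lists held 4252, 5672 and 5783 peaks.

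The members with VeA::FLAG peaks were also the stronger ones. The median of the mean LaeA::FLAG signal was 417 in the 88 members with 0 VeA::FLAG libraries, 553 in the 83 with 1, 591 in the 78 with 2 and 692 in the 75 with 3. The exon 1 promoter share was 42.0, 65.1, 66.7 and 66.7% in these groups. Their median VeA::FLAG IgG signal was 148, 62.05, 91.9 and 54.9 units, so it was highest where no VeA::FLAG peak was called. A missing VeA::FLAG peak is therefore not evidence that VeA was absent. Over the 236 members with a VeA::FLAG peak the mean signals of both tagged strains correlated on the log2 scale with Pearson's r = 0.74 and Spearman's rho = 0.71, a description across sites that share the antibody and the local chromatin. Peaks of VeA::FLAG at members had median signals of 667, 681 and 543 in replicates 1, 2 and 3, compared with 290, 248 and 244 over all VeA::FLAG peaks.

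The members also carried IgG signal. The study's merged regions that held a member had a median of 187 units in LaeA::FLAG IgG, 95.5 in VeA::FLAG IgG and 202 in WT IgG, against 92.4, 40.6 and 77.2 over all merged regions. The regions with members were wider, with a median of 486 bp against 264 bp. Per 200 bp the medians at members were 77.9 (LaeA::FLAG IgG), 36.9 (VeA::FLAG IgG) and 81.8 (WT IgG), against 73.9, 31.3 and 61.4 over all merged regions. The quartiles at members were 61.7 and 94.5, 6.73 and 70.6, and 47.4 and 117.5 for the same libraries. There was 1 IgG library per strain, so these differences have no replicate check.

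Regions shared with WT differed more. The 69 regions with 2 or 3 LaeA::FLAG and at least 1 WT library had medians of 118 (LaeA::FLAG IgG), 661 (VeA::FLAG IgG) and 278 (WT IgG) units per 200 bp. The top 1% of merged regions by signal held 23 members for LaeA::FLAG IgG, 3 for VeA::FLAG IgG and 22 for WT IgG, and 19, 51 and 38 of the 69 shared regions. This cut was on the total signal of a region and not per 200 bp. A WT peak lay within 500 bp of 32 members. With the 23 members of the highest LaeA::FLAG IgG signal left out, 301 members remained, and 60.1% of these were in exon 1 promoters.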

How the data were processed

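Tags had been mapped with bowtie2 and peaks called with HOMER (4.11 in the submitters' processing notes) at more than 2-fold and P of 0.001. Signal in the deposited lists is the number of tags per 10 M in a peak, for the anti-FLAG library and the IgG library of its strain, or in a merged region for the IgG files. The peak score deposited by the authors was used only to rank peaks, and the distance runs to the nearest exon start. Exon numbers followed the direction of transcription in every checked pair of exons. Coordinates are those of the FGSC A4 (s10-m04-r06) lists, as given.

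Regions, shares and exact permutation tests were computed in Python 3.11.15 (numpy 2.4.6, pandas 2.3.3, scipy 1.17.1) and tested on simulated data. Symbols came from the ASM1142v1 gene table, which matched 92.1% of identifiers. A listed gene was used only where that table, or the study's text by identifier, gave its name. Members and lists were chosen with earlier results of these data known. Named genes were those nearest to the 15 strongest members of 3 libraries and the 8 strongest of 2, listed genes, genes with 2 members, and the 5 highest and 3 lowest folds over IgG. Alternatives changed the chain distance, the promoter, the peak threshold, the list length and the libraries. Combined lists of pooled replicates were not used for the results. Same-numbered libraries of both strains were not taken as pairs.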

Additional observations from a re-analysis of the deposited data

How the results depend on the processing

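The number of members was 220 and 402 with chains of 50 and 200 bp, 307 with peaks of at least 4-fold over IgG, 292 without members near a WT peak, and 301 without the top 1% of LaeA::FLAG IgG. It was 164 with lists of equal length. Leaving out 1 library gave 108 to 336 members, and each LaeA::FLAG library left out removed members by construction, since both other libraries then had to agree within 100 bp. Members of 3 libraries were lost too where the remaining centres were farther apart, among them those upstream of veA and velB. The exon 1 promoter share of the members moved to 52.2% with a promoter of 1 kb and to 67.0% with any exon, and was 58.3 to 63.9% when 1 library was left out. Of the 67 alternative values computed 62 kept their direction or stayed within set limits, 5 moved beyond them and 0 reversed. Member counts, shares of the members and their IgG signal have no direction and could not reverse. The mean differences by block equal the main ones by construction. With the replicate number as a block, the paired differences were 12.1 (p = 0.25) for exon 1 promoters, 18.9 (p = 0.5) for VeA::FLAG peaks, -6.48 (p = 0.5) for termination sites and -5.62 (p = 0.25) for chromosome ends, by exact sign-flip permutation. The deviations of same-numbered libraries over all regions correlated at 0.13, -0.08 and -0.29, and those of differently numbered libraries at -0.27 to 0.34. These values gave no ground for pairing, but they cannot show whether same-numbered libraries were handled together. At the sequencing depth of WT replicate 3 a typical member would hold 17.9 tags, close to the 5th percentile of the tags in its called peaks (17.5), and IgG libraries had no replicates.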
